A study of Mus musculus with 10 samples.

Results

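The spliceosome and hnRNP families were examined in gastrocnemius muscle as 59 genes whose symbols start with Hnrnp, Srsf, Sf3a, Sf3b, Prpf or Snrp. They were read by the 171 probe sets that name 1 of these genes alone, out of 34945 probe sets naming a single gene of 18193 on the array. The Hnrnp family had 19 genes and 58 probe sets, Srsf 10 genes and 33 probe sets, Sf3a 3 genes and 8, Sf3b 6 genes and 22, Prpf 12 genes and 32, and Snrp 9 genes and 18. The D257A mice were homozygous for a knock-in of the mitochondrial DNA polymerase gene (PolgD257A/D257A) that impairs its proofreading, in every tissue and from the germline on, and the WT mice were Polg+/+. Each genotype had 5 males of 13 months, from a mixed stock backcrossed towards C57Bl/6J, and each mouse had its own Affymetrix Mouse Genome 430 2.0 array. No allele or treatment besides the Polg genotype is given. The sample descriptions hold a protocol line in which the RNA comes from cochlea, against the tissue label. The 12 skeletal muscle markers examined were all bright (summed signal 624699 to 673117 in D257A mice and 546052 to 708046 in WT mice), while 3 of 12 cochlea markers passed the filter on dim probe sets, with summed signals of 429 to 718 in D257A mice and 598 to 681 in WT mice.

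Introns are removed by the spliceosome, which is built from small nuclear ribonucleoproteins (snRNPs). The Snrp genes encode the Sm proteins that ring the small nuclear RNAs, together with proteins specific to U1 or U2. The Sf3a and Sf3b proteins belong to U2 and hold the branch site, the Prpf proteins serve the U4/U6.U5 tri-snRNP and the catalytic stages, and the SR proteins (Srsf) and hnRNP proteins bind the transcript and choose between sites. Skeletal muscle depends on regulated splicing for the isoforms of its contractile and calcium-handling proteins.

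RefSeq promoter windows, which run from 250 bases before to 50 bases after a transcription start, were found for 53 of the 59 genes, as 72 windows on GRCm38.p6. Those of Snrpg and Hnrnpab and both windows of Prpf19 are shown because the largest called differences of the families lay in these genes. Capitals mark the CCAAT box (CCAAT, or ATTGG on the other strand), the TATA box (TATAAA or TTTATA) and a core that ETS factors bind (CCGGAAG or CTTCCGG), each searched on both strands. The windows lie at chr6:86371290-86371589 (Snrpg, plus strand), chr19:10894981-10895280 and chr19:10898395-10898694 (Prpf19, plus strand) and chr11:51606832-51607131 (Hnrnpab, minus strand).
Snrpg: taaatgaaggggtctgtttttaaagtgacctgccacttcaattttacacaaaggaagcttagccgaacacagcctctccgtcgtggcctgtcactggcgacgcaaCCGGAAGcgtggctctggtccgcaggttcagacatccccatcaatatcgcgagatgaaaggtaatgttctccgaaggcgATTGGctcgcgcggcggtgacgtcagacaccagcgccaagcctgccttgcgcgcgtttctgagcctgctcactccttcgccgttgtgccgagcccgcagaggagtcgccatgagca
Prpf19 first window: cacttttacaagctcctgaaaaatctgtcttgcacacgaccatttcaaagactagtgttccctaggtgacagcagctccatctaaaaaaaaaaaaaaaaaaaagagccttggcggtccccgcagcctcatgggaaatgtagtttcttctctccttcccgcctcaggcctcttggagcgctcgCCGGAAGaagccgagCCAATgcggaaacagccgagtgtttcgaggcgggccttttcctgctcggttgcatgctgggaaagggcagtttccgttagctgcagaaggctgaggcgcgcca
Prpf19 second window: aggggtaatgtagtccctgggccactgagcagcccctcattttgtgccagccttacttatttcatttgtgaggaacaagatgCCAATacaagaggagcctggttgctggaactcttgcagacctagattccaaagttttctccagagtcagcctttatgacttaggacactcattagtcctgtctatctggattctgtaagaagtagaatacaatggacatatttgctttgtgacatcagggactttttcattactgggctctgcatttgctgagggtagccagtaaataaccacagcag
Hnrnpab: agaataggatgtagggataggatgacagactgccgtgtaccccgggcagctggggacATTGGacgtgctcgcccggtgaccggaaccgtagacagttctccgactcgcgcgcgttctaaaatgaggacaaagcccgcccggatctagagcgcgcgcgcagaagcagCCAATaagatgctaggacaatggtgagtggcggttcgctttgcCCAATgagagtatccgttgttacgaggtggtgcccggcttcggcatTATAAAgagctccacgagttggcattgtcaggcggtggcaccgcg
The Snrpg window and the first Prpf19 window each held 1 ETS core and 1 CCAAT box. The second Prpf19 window had a CCAAT box alone and no CpG, against 16 CpGs in the first. The Hnrnpab window had 3 CCAAT boxes and 1 match to the TATA box letters, which lay in the last 50 bases, after the start. Over the 72 windows, the ETS core was found in 33.3%, against 8.86% of all 32851 windows. The CCAAT box was found in 48.6% of the family windows and in 37.4% of all windows, and the TATA box in 8.33% and 13.6%. The family windows were also richer in CpG, with a median of 25 per window against 7 in all windows, and in G and C (median 60% against 52.7%), and the motif shares were not corrected for this. These are matches of letters only, and some genes have more than 1 window.

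A probe set's value is its signal on a linear scale after each array was brought to a common trimmed mean of 500. The 149 member probe sets with a mean log2 signal above the array's median, from 57 genes, were tested, and 22 were too dim. Snrpn and Srsf12 had no tested probe set. Differences are D257A minus WT on the log2 scale, and a probe set was called when its Benjamini-Hochberg adjusted p from limma, over all 22518 probe sets tested, was under 0.05. Of the 149, 9 were called higher in D257A muscle (6.04%, against 3.64% of all probe sets tested) and 2 were called lower (1.34%, against 3.74%). The 9 higher probe sets belonged to Prpf19, Snrpg, Hnrnpu, Srsf1 and Sf3b3, and the 2 lower ones to Prpf19 and Hnrnpab. Every D257A mouse lay above every WT mouse in 9 member probe sets (3.94% of all tested) and below every WT mouse in 2 (3.77% of all tested). When each gene was read by its brightest tested probe set, Prpf19 and Snrpg were called higher and 0 genes lower among 57 (3.71% and 3.52% of 11216 genes). At an unadjusted p under 0.05, limma had 8 higher and 0 lower (14% and 0%, against 11.1% and 11.7% of all genes). The methods' t-test, on the same values, called 0 in either direction after adjustment. It is named in the paper's general statistics, while the supplement names pairwise comparisons in GCOS and SAM for the arrays, which were not run here.

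The count of higher calls moved with the scaling and with single mice. It was 1 with the signals as deposited (0.671%, against 1.58% of all tested) and 16 with arrays centred on their median (10.7%, against 7.1%), and the share of higher ones among all calls on the array was 49.3% here, 29.4% as deposited and 79.3% with median centring. Without the WT mouse 1-13M, 28 member probe sets were called higher (18.8%, against 7.32% of all), and without the WT mouse 3-18M, 12 were (8.05%, against 3.73%). The share of members was below that of all probe sets without the WT mouse 1-12M (3 called, 2.01% against 2.17%) and without the D257A mice 2-25M (3 called, 2.01% against 2.2%) or 2-30M (3 called, 2.01% against 2.46%). It was above it without 2-3M (4 called, 2.68% against 2.28%), 2-32M (4, 2.68% against 2.31%), 2-17M (4, 2.68% against 1.99%), 2-21M (6, 4.03% against 2.9%) and 2-27M (7, 4.7% against 2.92%). All D257A mice but only 2 of the 5 WT mice have numbers that start with 2. In a fit that blocks on the first digit, none of the 9 higher calls was kept. It called 1 other probe set, of Prpf38b (0.671%, against 1.29%). With no D257A mouse under another digit, that fit took its genotype difference from the mice starting with 2 alone. Without the block, those mice gave 14 higher calls (9.4%, against 3.97%), among them 6 of the 9. The 2 lower calls held when each mouse was left out. Whole muscle was measured, so fewer cells of a type and less RNA per cell cannot be told apart. Macrophage markers were called higher in 8 of 16 genes (against 3.71% of all genes), and by the methods' t-test in 5. Cd68 (0.02) and C1qa (0.01) were among the 8 not called. The summed signals were 12944 to 18863 in D257A mice and 9650 to 11796 in WT mice. Fibroblast markers were called lower in 5 of 10 (against 3.52% of all genes), and by the methods' t-test in 1. The 5 were Col1a1, Col1a2, Col3a1, Mfap5 and Fn1, and the 5 not called ran from -0.59 (Dpt) to -0.04 (Pdgfra). The sums were 24490 to 28811 in D257A mice and 24702 to 41259 in WT mice, with Dcn (-0.08, not called) the largest part. The part of these cells in the splicing genes was not tested.

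**Figure D1:**
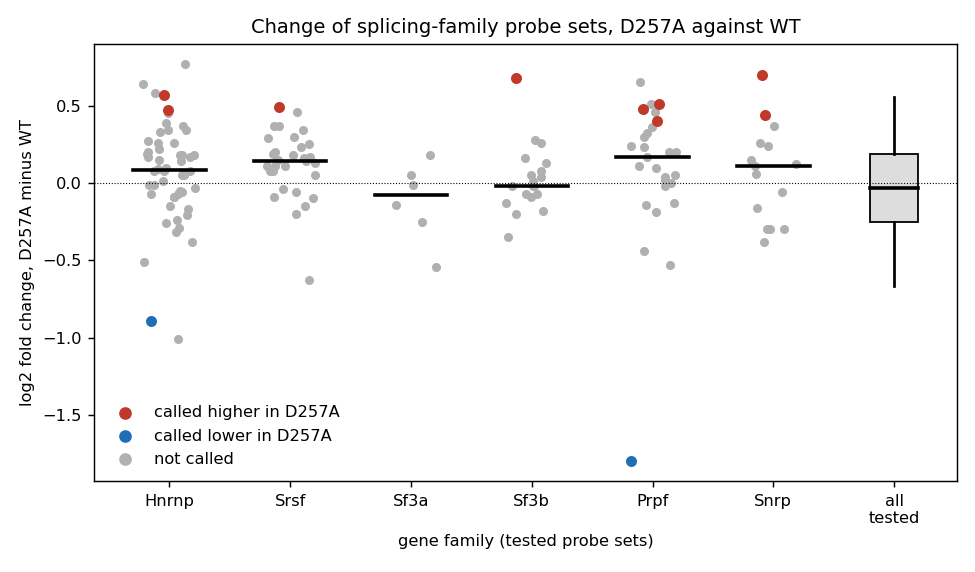
The log2 fold change (D257A minus WT) of each of the 149 tested probe sets is plotted by family, with red points called higher, blue points called lower and a black line at the family median; the box and whiskers on the right give the quartiles and the 5th to 95th percentiles of all 22518 probe sets tested. Medians run from -0.08 for Sf3a to 0.17 for Prpf, and the lowest point is a Prpf19 probe set at -1.80.

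Taken over families, 94 of the 149 tested member probe sets had a positive difference (63.1%, against 46.3% of all tested), with a median of 0.10 against -0.03. The median was 0.17 for Prpf (19 of 27 positive), 0.15 for Srsf (23 of 30), 0.11 for Snrp (9 of 15) and 0.09 for Hnrnp (32 of 52). It was -0.02 for Sf3b (9 of 19) and -0.08 for Sf3a (2 of 6). The called counts were 3 higher and 1 lower for Prpf (11.1% and 3.7%), all of Prpf19, and 2 higher for Snrp (13.3%), both of Snrpg. They were 2 higher and 1 lower for Hnrnp (3.85% and 1.92%), 1 higher for Srsf (3.33%) and 1 higher for Sf3b (5.26%). Of all probe sets tested, 3.64% were called higher and 3.74% lower. Sf3a had 0 calls, and none of its probe sets reached an unadjusted p under 0.05 in limma either. The differences between families were not tested. Median centring raised the median of all probe sets by 0.13, to 0.10, and that of the members to 0.23, and with signals as deposited the medians were -0.10 for all and 0.02 for members.

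Among the snRNP core genes, Snrpg, which encodes the SmG protein of the Sm ring, was higher in D257A muscle by both of its probe sets. For 1448357_at, the signal was 1985, 2158, 2107, 1866 and 1928 in the 5 D257A mice, against 1049, 1420, 1483, 1143 and 1147 in the 5 WT mice. All D257A mice lay above all WT mice, and the means were 2009 ± 122 and 1248 ± 191 (SD, n = 5 each). The difference was 0.70 ± 0.12 (SE), or 1.62-fold, with an adjusted p of 0.00452, and the call was kept in 20 of 21 alternative analyses. The fit that blocks on the first digit ended it (0.62 ± 0.16, adjusted p = 0.0677). The second probe set, 1448358_s_at, read 4771, 4146, 4830, 3940 and 4759 in D257A mice, against 2894, 3841, 3464, 2745 and 3682 in WT mice. The genotypes again did not overlap, though the lowest D257A mouse, 2-27M, was close to the highest WT mouse, 1-13M. Its difference was 0.44 ± 0.12 (adjusted p = 0.0382), and the call was lost in 13 of 21 alternatives. It was lost without any of the D257A mice 2-17M, 2-21M, 2-25M or 2-30M or the WT mice 1-12M, 2-3M or 2-32M (0.37 to 0.47, adjusted p = 0.0541 to 0.103).

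The other Sm genes were not called. Snrpe, the SmE protein and the brightest of the family, read 6471, 6796, 7276, 5858 and 6351 in D257A mice, against 5174, 5154, 5612, 4486 and 7210 in WT mice. The WT mouse 3-18M stood among the D257A mice, the difference was 0.26 ± 0.12 (adjusted p = 0.214), and without that mouse the probe set was called (0.36, adjusted p = 0.0433). Snrpb (SmB) had 0.06 and 0.15 and Snrpf (SmF) 0.11. Snrpd3 (SmD3) had values on both sides of 0, between -0.38 and 0.12. Of the U2-specific proteins, Snrpb2 had 0.24 and 0.37, while the 3 probe sets of Snrpa1 all read -0.30 with overlapping genotypes, and none of these was called. Snrpc, a U1 protein, had -0.06.

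The U2 branch site complex showed 1 call. Sf3b3, a large scaffold subunit of SF3b, read 575.3, 348.8, 545.5, 511 and 538.6 by 1430075_at in D257A mice, against 326.1, 347.7, 255.8, 378.4 and 256.98 in WT mice. The D257A mouse 2-21M lay inside the WT range and the other D257A mice above it. The difference was 0.68 ± 0.17 (1.61-fold, adjusted p = 0.0288), but the call was lost in 12 of the 20 alternatives that tested it. It was lost without any of the D257A mice other than 2-21M, or without the WT mice 1-12M, 2-3M or 3-18M (0.62 to 0.70, adjusted p = 0.0529 to 0.0781). The gene's brighter probe set, 1415985_at, averaged 948 ± 156 in D257A mice and 910 ± 129 in WT mice, a difference of 0.05 ± 0.15. Sf3b1, the subunit that contacts the branch site and the brightest of its family, read 6751, 5671, 5694, 5409 and 7291 in D257A mice, against 4893, 8174, 4183, 5310 and 5520 in WT mice. The WT mouse 1-13M was the highest of all and the difference was 0.16 ± 0.16 (adjusted p = 0.574). Of the remaining SF3b genes, Sf3b2 ran between -0.20 and 0.28, and Sf3b4, Sf3b5 and Sf3b6 between -0.13 and 0.13. For Sf3a2, the brightest of SF3a, 1455546_s_at gave 1485, 1744, 1847, 2471 and 2373 in D257A mice, against 2045, 2933, 2253, 2400 and 2036 in WT mice. The genotypes overlapped (difference -0.25 ± 0.16, adjusted p = 0.363). Sf3a1 had 0.05 and 0.18, and Sf3a3 -0.14 and -0.01.

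Prpf19, the ubiquitin ligase that organises the Prp19 complex around the catalytic spliceosome, had the largest called difference of the families, and its probe sets were called in both directions. By 1460633_at, the signal was 372.8, 315.6, 349.3, 404.8 and 448.1 in D257A mice, against 1212, 1688, 1577, 1542 and 770 in WT mice. Every D257A mouse lay below every WT mouse, including 3-18M, which was well below the other WT mice. The difference was -1.80 ± 0.20, a 3.48-fold lower signal (adjusted p = 0.000359), and it was called in 21 of 21 alternatives.

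The 3 brighter Prpf19 probe sets were called in the opposite direction. The brightest member of the family, 1456531_x_at, read 16178, 16017, 18812, 17405 and 18793 in D257A mice, against 10838, 14152, 14780, 12808 and 13880 in WT mice. By 1419839_x_at, the D257A mice had 10729, 10644, 10397, 10240 and 11791 and the WT mice 7567, 9371, 8089, 7298 and 6381. By 1449635_at, the D257A mice had 9498, 9829, 9456, 8776 and 10710 and the WT mice 6440, 8341, 7483, 6400 and 5601. In all 3, no D257A mouse overlapped a WT mouse. The differences were 0.40 ± 0.10 (adjusted p = 0.0251), 0.48 ± 0.10 (adjusted p = 0.0127) and 0.51 ± 0.11 (adjusted p = 0.0147). The first call was lost in 12 of 21 alternatives, among them those without the D257A mice 2-25M, 2-27M or 2-30M or the WT mice 1-12M or 2-32M (0.33 to 0.40, adjusted p = 0.0503 to 0.0724). Each of the others was lost in 2, the signals as deposited and the fit that blocks on the first digit of the mice's numbers. A further probe set, 1444939_at, was too dim to test. An _x_at name marks a probe set in which some probes can match other transcripts. Probe sequences were not analysed here, so neither where each set lies nor whether the platform's older annotation gives the 3 bright sets the right gene was checked, and a call of Prpf19 as higher rests on that annotation.

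**Figure D2:**
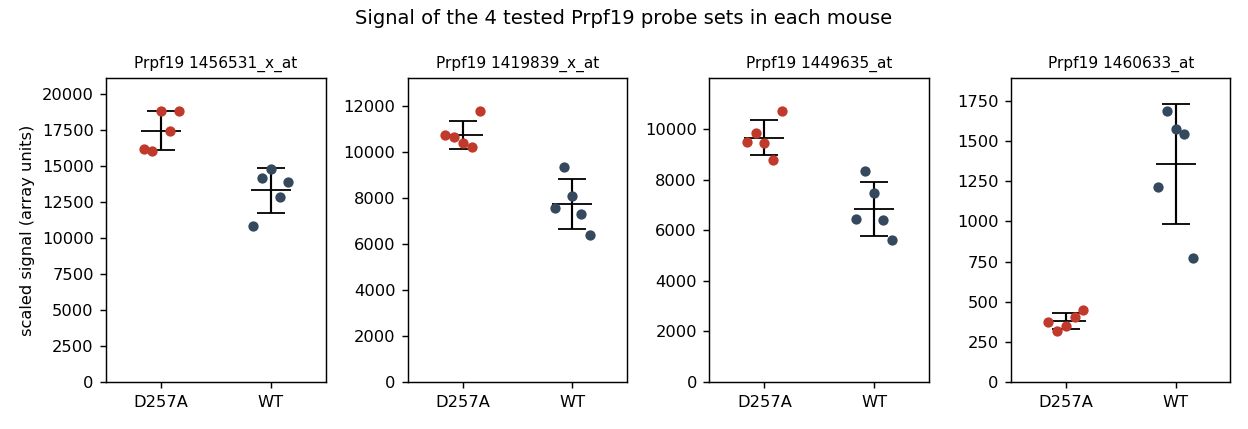
Scaled signal (array units, axes from 0) of the 4 tested Prpf19 probe sets, with a point for each D257A mouse (red) and WT mouse (blue), bars at the mean and SD. The 3 bright probe sets were higher in D257A mice without overlap, and 1460633_at was lower, at 378 ± 50.9 against 1358 ± 374.

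The disagreement within Prpf19 was itself tested. The log2 ratio of 1460633_at over 1456531_x_at within a mouse averaged -5.53 in D257A mice (SD 0.16) and -3.34 in WT mice (SD 0.47, n = 5 each), a difference of -2.20 ± 0.23 (adjusted p = 0.00193). It was the 1 pair called among 92 pairs of the families, where 8 of 8286 pairs on the array were called (0.0965%). The other Prpf genes were not called. The tri-snRNP proteins Prpf3, Prpf8 and Prpf6 had positive differences (0.32, 0.10, and 0.23 and 0.65), while Prpf31 had -0.14 and -0.13 and Prpf4 -0.19 and -0.02. Prpf38b had 0.30 and 0.51, the second just above the threshold (1452869_at, adjusted p = 0.0556). Prpf4b, a kinase of the spliceosome, spread from -0.53 to 0.36 over 6 probe sets, and Prpf38a had -0.44 and 0.17. Prpf39 had 0.05 to 0.46, Prpf18, which acts in the second catalytic step, 0.04, and Prpf40b 0.20.

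In the SR family, Srsf1, a founding member that promotes the use of exons, was positive in all 6 tested probe sets, from 0.15 to 0.49. The call was for 1428100_at, which read 1284, 1153, 1100, 1179 and 1137 in D257A mice, against 918.3, 613.8, 828.7, 827.9 and 1016 in WT mice. The D257A mice all lay above the WT mice, of which 1-13M was the lowest. The difference was 0.49 ± 0.14 (1.41-fold, adjusted p = 0.0439) and the call was lost in 13 of 21 alternatives. It was lost without any single D257A mouse, or without the WT mice 1-12M, 2-3M or 2-32M (0.46 to 0.53, adjusted p = 0.0677 to 0.107). Among the 5 others, which were not called, the brightest, 1434972_x_at, averaged 3316 ± 316 in D257A mice and 2959 ± 384 in WT mice. Srsf2, the brightest of the family by 1427504_s_at, read 7318, 6200, 5756, 7852 and 6523 in D257A mice, against 6025, 5168, 4789, 5853 and 7616 in WT mice. The genotypes overlapped, with the WT mice 1-12M, 2-32M and 3-18M above the lowest D257A mouse (difference 0.20 ± 0.13, adjusted p = 0.376), and the gene's 4 probe sets ran from -0.63 to 0.20. Srsf6 (0.11 to 0.37 over 4 probe sets) and Srsf11 (0.16 to 0.34 over 3) were positive throughout without a call, although 1427269_at of Srsf11 did not overlap between genotypes (adjusted p = 0.0963). Srsf3 and Srsf10 had values on both sides of 0, and the single probe sets of Srsf4, Srsf5 and Srsf9 had 0.11, -0.04 and 0.08.

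Among the hnRNP genes, Hnrnpu, a nuclear scaffold protein that binds RNA and chromatin, had 5 tested probe sets, all positive between 0.34 and 0.57, of which 2 were called. For 1434390_at the D257A mice had 1313, 1035, 1363, 1177 and 1621 and the WT mice 827.7, 1057, 769.9, 834.4 and 869.9. The D257A mouse 2-21M lay just below the WT mouse 1-13M, and the difference was 0.57 ± 0.14 (adjusted p = 0.0257). For 1434391_at the D257A mice had 1038, 1083, 1189, 932.7 and 1127 and the WT mice 823.9, 887.4, 725.2, 808 and 643.2, without overlap (0.47 ± 0.13, adjusted p = 0.0362). These calls were lost in 9 and 13 of 21 alternatives. Both were lost without the D257A mice 2-17M, 2-25M or 2-30M or the WT mice 1-12M, 2-3M or 2-32M, and the second also without 2-21M or 3-18M (adjusted p = 0.0624 to 0.0707 for the first and 0.0567 to 0.097 for the second). The brightest, 1423051_at, averaged 6155 ± 872 in D257A mice and 4770 ± 1250 in WT mice (0.39 ± 0.16, adjusted p = 0.145). With all 5 averaged per mouse, Hnrnpu was called at 0.43 ± 0.12 (adjusted p = 0.0419), and among the 57 genes Snrpg (0.57 ± 0.11, adjusted p = 0.00706) was the only other gene called in that way.

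Hnrnpab, an hnRNP of the A/B type, was lower by a single probe set. By 1426114_at, the signal was 3172, 5557, 4161, 3208 and 3936 in D257A mice, against 7538, 8030, 5702, 5653 and 10303 in WT mice. The genotypes did not overlap, with the D257A mouse 2-21M just below the WT mice 2-32M and 2-3M. The difference was -0.89 ± 0.18 (1.85-fold lower, adjusted p = 0.0111), and the call was lost in 3 of 21 alternatives, those with the methods' t-test, the block and the mice whose number starts with 2. The difference stayed at -0.89 with the methods' t-test (adjusted p = 0.064) but was -0.53 with the block (adjusted p = 0.154) and in the mice starting with 2 (adjusted p = 0.109). The 4 other tested probe sets of the gene lay between -0.07 and 0.08. The brightest of them, 1455855_x_at, read 8706, 9723, 10909, 11012 and 9105 in D257A mice, against 8629, 10411, 9067, 8804 and 9902 in WT mice. The ratio of 1426114_at over it differed by -0.96 ± 0.20, which did not pass over all pairs (adjusted p = 0.0745).

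**Figure D3:**
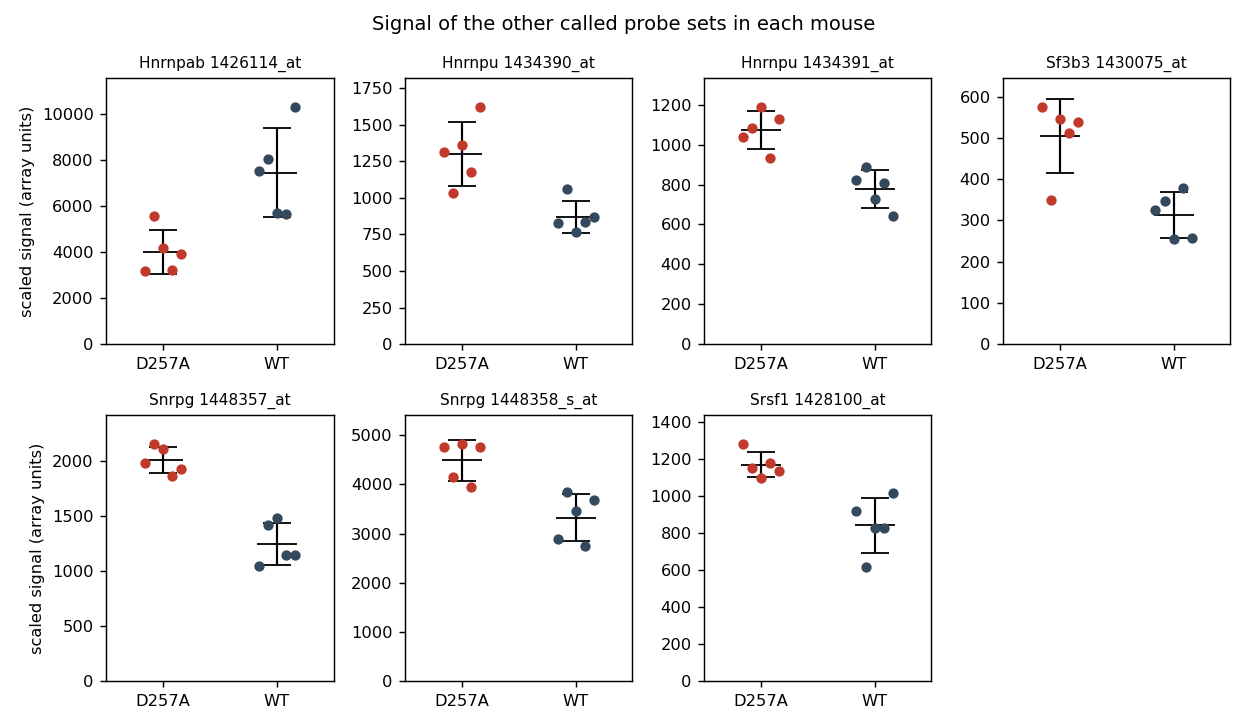
Scaled signal (array units, axes from 0) of the 7 called probe sets outside Prpf19, with a point for each D257A mouse (red) and WT mouse (blue) and bars at the mean and SD. The genotypes do not overlap for Hnrnpab, Hnrnpu 1434391_at, both Snrpg probe sets and Srsf1, and overlap for Hnrnpu 1434390_at and Sf3b3.

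The other hnRNP genes were not called. Hnrnpa2b1, the brightest by 1420365_a_at, read 12213, 10439, 12348, 13020 and 11745 in D257A mice, against 12743, 10112, 14085, 11678 and 15346 in WT mice. The genotypes overlapped and the difference was -0.09 ± 0.11 (adjusted p = 0.692), with the opposite sign under median centring (0.05). Hnrnpr was negative in all 4 probe sets, from -1.01 to -0.01, the lowest being a dim one (1438807_at, 77.4 ± 40.5 in D257A mice and 126 ± 27 in WT mice). Hnrnpc, which binds uridine tracts, had -0.26 and -0.15. Hnrnph1 had -0.51 and 0.05, Hnrnpll 0.05 and 0.15 and Hnrnpul2 -0.17 and 0.20. Hnrnpd ran from -0.09 to 0.18, Hnrnpk from -0.38 to 0.17 and Hnrnpdl from -0.24 to 0.64 over 7 probe sets. The single probe sets of Hnrnpl, Hnrnpm, Hnrnpa0, Hnrnph2, Hnrnph3 and Hnrnpul1 lay between -0.32 and 0.19.

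The shares of probe sets that agreed within a gene were close to those on the whole array, and this comparison was not tested. Of 41 genes with 2 or more tested probe sets, 24 had differences all of the same sign (58.5%, against 58.1% of 4981 genes), and the median span from the lowest to the highest was 0.29 on the log2 scale, against 0.29. Against the brightest probe set of the gene, 57 of 92 further probe sets had the same sign (62%, against 66.6%), and the median difference between them was 0.20 in size, against 0.20. The unadjusted p was under 0.05 for 15 pairs (16.3%, against 16.5%). By family, all signs agreed in 3 of 3 Sf3a genes, 4 of 5 Snrp genes, 5 of 8 Prpf genes, 3 of 6 Srsf genes, 3 of 6 Sf3b genes and 6 of 13 Hnrnp genes. The widest spans were those of Prpf19 (2.31), Hnrnpr (1.0), Hnrnpab (0.96), Prpf4b (0.89), Hnrnpdl (0.88) and Srsf2 (0.83). Snrpa1 and Prpf31 had the narrowest, at 0.01.

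**Figure D4:**
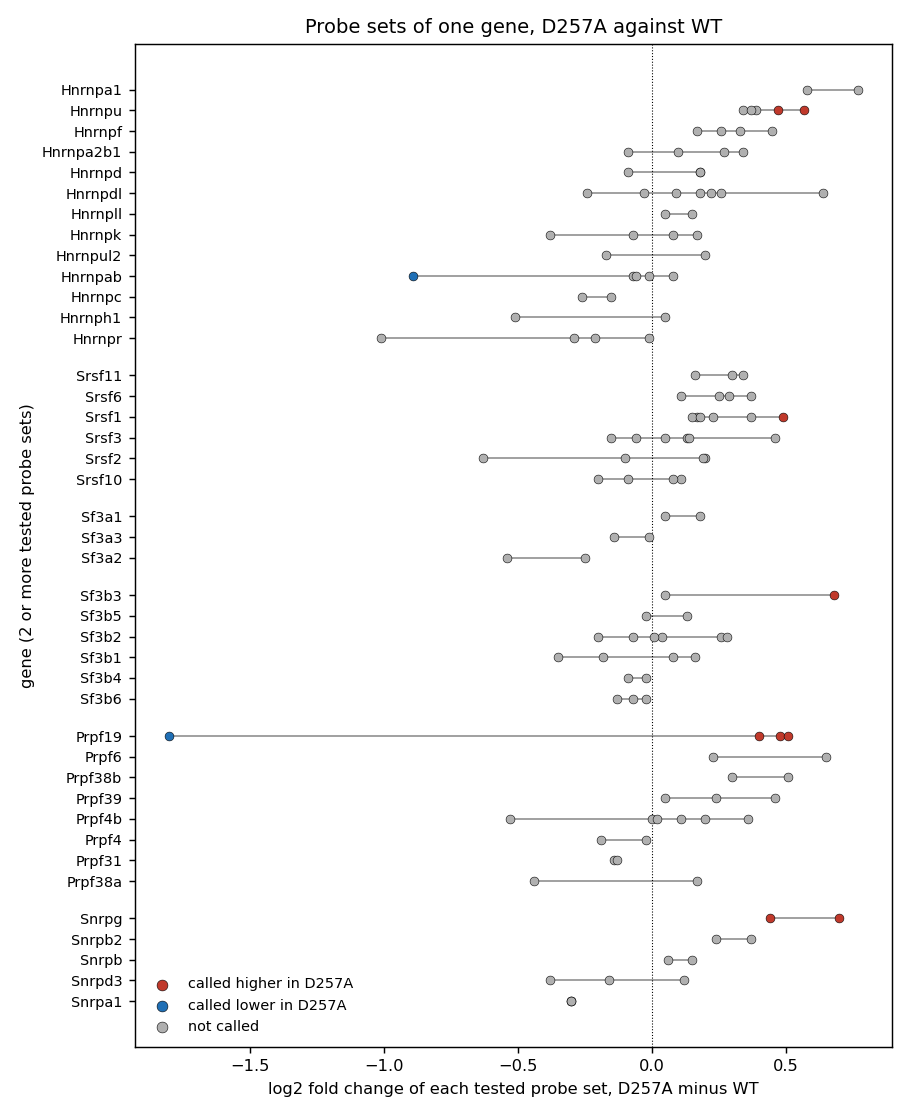
Each row is 1 of the 41 genes with 2 or more tested probe sets, grouped by family, and each point is the log2 fold change (D257A minus WT) of a probe set, joined by a line; red points were called higher and blue points lower. Prpf19 spans 2.31, and Hnrnpu and Srsf1 have all their points to the right of 0.

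Averaged over genes in each mouse and set to the WT mean, the 57 genes stood at 0.08 to 0.13 in the D257A mice, while the WT mice were at -0.09 (1-12M), 0.16 (1-13M), -0.04 (2-3M), -0.06 (2-32M) and 0.03 (3-18M). The D257A mice were close together and all above 4 of the WT mice, and the WT mouse 1-13M was above all of them. The Prpf mean was 0.17 to 0.29 in D257A mice, against -0.16 to -0.02 in the WT mice other than 1-13M, which had 0.27. The Hnrnp mean was 0.00 to 0.12 in D257A mice and 0.17 in 1-13M, and the Sf3b mean was -0.07 to 0.11 in D257A mice and 0.23 in 1-13M. In the Snrp family, by contrast, 1-13M was the lowest mouse, at -0.11, against 0.06 to 0.16 in D257A mice, and the WT mice 2-3M (0.08) and 3-18M (0.14) lay within the D257A range. The Srsf mean was 0.07 to 0.18 in D257A mice, and both 1-13M (0.14) and 3-18M (0.08) lay within that range. In 80 of the 149 tested member probe sets (53.7%), 1-13M was the highest of the WT mice, against 31.4% of all probe sets tested. Its array also had the highest deposited trimmed mean (128.7, against 93.45 to 106.1 in D257A mice). This mouse had the lowest WT signal for every fibroblast marker examined except Fbln2. Its Col1a2 signal was 778.3, against 1941 to 3548 in the other WT mice. For each skeletal muscle marker examined, it was the lowest of all mice. What part any of these had was not tested.

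**Figure D5:**
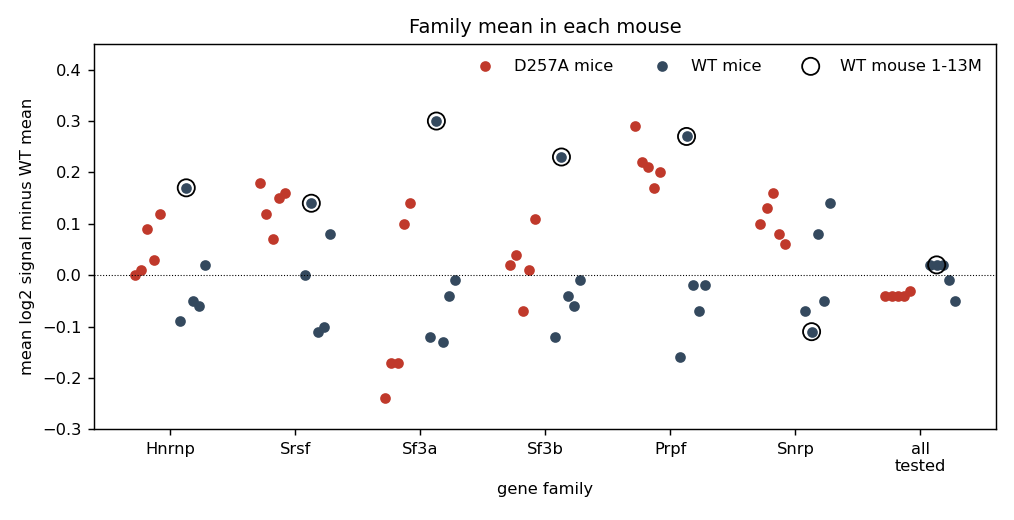
Mean log2 signal of each family in each mouse, over its genes' brightest tested probe sets and set to the WT mean. D257A mice are in red, WT mice in blue and the WT mouse 1-13M is circled. The last column averages all 22518 probe sets tested, not the brightest of each gene. The circled mouse is at 0.27 for Prpf and 0.30 for Sf3a, and at -0.11 for Snrp.

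Hnrnpa1 and Hnrnpf, regulators of exon choice, are given as examples of this pattern and were picked after their values were seen. By 1436549_a_at, Hnrnpa1 read 4403, 4097, 4884, 3703 and 8056 in D257A mice, against 2193, 7978, 2543, 2995 and 2629 in WT mice. The WT mouse 1-13M and the D257A mouse 2-30M stood apart, with 2-30M slightly the higher, and the other D257A mice were all above the other WT mice. By 1456664_x_at, Hnrnpf read 5207, 4681, 6039, 4597 and 6327 in D257A mice, against 2930, 6615, 3226, 3623 and 4008 in WT mice. The 5 D257A mice were above 4 WT mice and below 1-13M. Neither was called with all mice (adjusted p = 0.27 for Hnrnpa1 and 0.165 for Hnrnpf), and both were called without 1-13M, at 0.91 ± 0.18 (adjusted p = 0.00437) and 0.64 ± 0.12 (adjusted p = 0.00338). These adjusted p-values do not allow for that choice of genes, or for leaving out a mouse already seen to be high in them. The fit without 1-13M called 28 member probe sets higher (18.8%, against 7.32% of all tested). They came from 13 genes, with 11 probe sets in Hnrnp, 8 in Prpf, 4 in Srsf, 4 in Snrp, 1 in Sf3b and none in Sf3a. They included all 5 of Hnrnpu, 3 of Hnrnpf, 3 of Srsf6 and both tested ones of Hnrnpa1, Prpf6, Prpf38b, Snrpb2 and Snrpg.

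Other splicing genes were read by their brightest probe set, from lists drawn up with earlier results of these data known. Of 20 further snRNP proteins, 1 was called lower and 0 higher, namely Snrnp35 of the minor spliceosome (358 in D257A mice and 525 in WT mice, -0.56 ± 0.15, adjusted p = 0.0344). Of 17 genes for U2 recruitment, 1 was called higher, the helicase gene Ddx39b (0.41 ± 0.09, adjusted p = 0.0187). Of 23 genes of the Prp19 complex and the catalytic helicases, Ctnnbl1 (0.69 ± 0.17, adjusted p = 0.0244) and Snw1 (0.43 ± 0.12, adjusted p = 0.0382) were called higher. Of 27 SR-related proteins and SR kinases, 3 were called higher and 0 lower, and the list's median was 0.24. The called genes were Bclaf1 (5349 in D257A mice and 3635 in WT mice, 0.57 ± 0.11, adjusted p = 0.00998), Rbm39 (0.43 ± 0.11, adjusted p = 0.0327) and Clk1, a kinase of SR proteins (0.54 ± 0.14, adjusted p = 0.0369). Of 35 other regulators of alternative splicing, the muscle and neuronal factor Rbfox1 (12608 in D257A mice and 9216 in WT mice, 0.46 ± 0.10, adjusted p = 0.0115) and the poly(C)-binding protein gene Pcbp2 (0.35 ± 0.08, adjusted p = 0.0147) were called higher. Of 16 genes of the exon junction complex and mRNA export, limma and the methods' t-test each called 0, with 3 higher and 1 lower at an unadjusted p under 0.05 in limma, where 11.1% and 11.7% of all genes passed. The medians of the other lists were 0.17 for the further snRNP proteins, 0.17 for U2 recruitment, 0.11 for the Prp19 complex, 0.06 for the other regulators and 0.07 for the last list. Over all genes the shares called were 3.71% higher and 3.52% lower, and the median was -0.01. With the methods' t-test, the calls of Snrnp35 (adjusted p = 0.051), Snw1 (adjusted p = 0.0629), Ctnnbl1 (adjusted p = 0.069) and Clk1 (adjusted p = 0.0972) were lost.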

How the data were processed

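Each sample is the gastrocnemius of 1 mouse on 1 array (5 D257A, 5 WT). The deposited values are intensity signals, 1 per probe set on a linear scale, made by the authors with GCOS 1.3; how GCOS computed the signal is not stated. The authors' methods state a scaling target of 500, but the deposited trimmed means (2% off each end) were 93.45 to 106.1 in D257A mice and 94.51 to 128.7 in WT mice, so each array was scaled to 500 and log2 taken. The number of arrays limits the precision.

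Of 45101 probe sets, 64 controls were left out and the 22518 of 45037 whose mean log2 signal exceeded the median (dimmest 6.26) entered the fit of limma 3.58.1 under R 4.3.3 (lmFit, eBayes with a trend, Benjamini-Hochberg, no covariates). Pairs were tested in the same way on the log2 ratio, per mouse, of each further tested probe set of a gene over its brightest, over 8286 pairs. Both fits were tested on simulated data with independent noise for each probe set and mouse, so the effect of an outlying mouse was not covered. Gene symbols came from the platform annotation (34958 probe sets with 1 symbol, 932 with several, 9211 unnamed here); 16 probe sets that share a member's symbol with other genes were left out. Named were all called member probe sets, the brightest of each family, genes with a called pair or with signs opposed to a call, and up to 4 called genes per list of other splicing genes. The members, lists and tests were chosen with earlier results of these data known. Alternatives were other scalings (as deposited, quantile, median), filters (none, the brightest 11259 probe sets), variance models, an offset of 32, the methods' t-test, a block for the first digit of the mice's numbers, mice whose number starts with 2, and each mouse left out.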

Additional observations from a re-analysis of the deposited data

Results flagged for a closer look

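Sf3b3 by 1430075_at had a D257A mouse far from the others: 2-21M read 348.8. On the log2 scale, its gap to the next D257A mouse was 0.763 of the group's whole range, above Dixon's critical value of 0.71 for 5 samples. It was the only such case in 32 groups examined. Chance alone passes that value in about 1 group in 20, so 1 case in 32 groups is no more than chance gives.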

How the results depend on the processing

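Of the called probe sets, Prpf19 1460633_at kept its call in 21 of 21 alternatives, Snrpg 1448357_at in 20, and the 9 others in 8 to 19. The main fit called 9 member probe sets higher (6.04%, against 3.64% of all tested). There were 1 with the signals as deposited (0.671%, against 1.58%) and 16 with median centring (10.7%, against 7.1%). There were 4 without a filter (2.34%, against 1.2%) and 5 without a variance trend (3.36%, against 2.29%). Array weights gave 32 (21.5%, against 8.25%) and the methods' t-test 5 (3.36%, against 2.4%). The digit block gave 1 (Prpf38b, none of the 9), or 0.671% against 1.29%. The mice whose number starts with 2 (5 D257A mice against 2 WT mice) gave 14 (9.4%, against 3.97%). Leaving out 1 mouse gave 3 to 28 (2.01% to 18.8%, against 1.99% to 7.32%). Against 2 called lower (1.34%, against 3.74%), the methods' t-test, the block and the mice starting with 2 gave 1 each. That was 0.671%, against 2.19%, 1.2% and 3.81% of all tested. At an unadjusted p under 0.05, the methods' t-test had 22 higher and 6 lower (14.8% and 4.03%, against 10.3% and 11.9% of all tested). The paper's supplement pairs that p threshold with one on fold change, which was not applied here. For its count of changed genes, the paper also required a false discovery rate under 0.05. Against 1 pair called different, a fit on the brightest 11259 probe sets and array weights each gave 2. With gene means in place of the brightest probe set, 2 genes were again called, Snrpg and Hnrnpu in place of Snrpg and Prpf19. Hnrnpa2b1 1420365_a_at was 0.05 under median centring. The causes of these changes were not tested. No paired analysis was possible because no litter or other pairing of D257A with WT mice is given. Dim probe sets (22 of 171) and the small size of most differences limit what 5 mice against 5 can show. The signed differences had a median of 0.10 and quartiles of -0.07 and 0.25, and the median standard error was 0.15.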

Other observations

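Qk, a splicing regulator of muscle outside the families, was also among the 8 probe set pairs called different on the array, with 1429735_at over 1451179_a_at differing by -1.09 between D257A and WT mice (adjusted p = 0.0432). By the ending of their names, 7.69% of 78 plain _at member probe sets were called higher (2.93% on the array), 0 of 31 with _a_at (5.11%), 1 of 22 with _s_at (4.5%) and 2 of 18 with _x_at (7.18%), and these differences were not tested.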
